A study of Mus musculus with 12 samples.

Results

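The genes described here are 57 mouse transcription factors that direct the formation of neurons, glia, muscle, heart, gut, lung, kidney, blood and other tissues. Some of them also act in skeletal or mesenchymal lineages, such as Pax1 and Pax9 in the sclerotome and Gsc in craniofacial mesenchyme. The 57 came from the Pax, Lhx, Nkx, Gata, Sox, Irx, Otx, Emx, Foxa, Cdx and Olig families. Six2, Six3 and proneural and muscle factors such as Neurog2 and Myod1 were also included. The members were 57 of the 21911 protein-coding genes that GENCODE places on the chromosomes of the files. A region of either histone mark belonged to a gene when it overlapped the gene body or the 10 kb on each side of it. The question was which of these genes lay under H3K27me3 in mesenchymal stem cells (MSCs), which carried H3K27ac, and how both marks compared between cells of old and young mice.

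H3K27me3, trimethylation of lysine 27 of histone H3, is written by the Polycomb complex PRC2 and is known for covering the silent regulators of other lineages in broad domains. H3K27ac, acetylation of the same lysine, marks active promoters and enhancers, and a single histone tail cannot carry both. The transcription start sites (TSSs) of such regulators usually lie in stretches rich in CpG dinucleotides, which is where Polycomb complexes gather in the mammalian genome.

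Both marks were profiled by CUT&RUN, in which an antibody tethers a nuclease to the mark so that the DNA beside it is cut out and sequenced. The MSCs came from young mice of 3 to 5 months or old mice of 18 to 22 months and were kept at 2% oxygen in αMEM with serum and antibiotics, and 3 libraries were made per mark and age. The labels give no genotype, strain, sex or treatment. They divide the cells of a sample between both antibodies and do not say whether samples of 1 age came from separate animals or cultures, so the p-values measure the spread between these samples, which may be technical. The libraries of H3K27me3 held between 3622108 and 9947515 reads, and those of H3K27ac between 2750953 and 5541429. Of all H3K27me3 reads, 62.3% to 66.6% fell inside called regions in the young libraries and 53.8% to 60.8% in the old ones, with the lowest share in old replicate 3. All 13 MSC marker genes, among them Pdgfra, Ly6a, Thy1 and Col1a1, had a called H3K27ac region over the TSS, as did 0 of 8 endothelial, 0 of 8 blood, 0 of 5 epithelial, 1 of 6 skeletal muscle (Tnnt3) and 2 of 6 neural or glial markers (S100b among them). In a bulk sample, both marks on the same chromosomes and each mark in its own share of the cells cannot be told apart.

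The promoters printed next show the DNA under these marks in the genes at the ends of the range described afterwards. Pax6 and Neurog2 had the densest H3K27me3 over the TSS, Gsc and Emx2 the sparsest, Irx3 the densest H3K27ac, and Gata2 the largest fall of H3K27me3. Irx5 belonged to the same choice for its H3K27ac and is named only. Gata2 was added after its values were seen. Each sequence is 300 bases from RefSeq on GRCm38.p6, from 250 before to 50 after the RefSeq start, 5′ to 3′, with each CG in capitals. The RefSeq starts of Emx2 and Irx3 lie 318 and 413 bases from the GENCODE TSS, inside the GENCODE gene.
Pax6, chr2:105668646-105668945 (+ strand): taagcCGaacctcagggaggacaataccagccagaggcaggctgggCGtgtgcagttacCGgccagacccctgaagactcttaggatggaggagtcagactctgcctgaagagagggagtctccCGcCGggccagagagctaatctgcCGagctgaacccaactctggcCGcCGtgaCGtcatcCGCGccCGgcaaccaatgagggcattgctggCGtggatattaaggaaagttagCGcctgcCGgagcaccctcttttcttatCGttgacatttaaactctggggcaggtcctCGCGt
Neurog2, chr3:127632886-127633185 (+ strand): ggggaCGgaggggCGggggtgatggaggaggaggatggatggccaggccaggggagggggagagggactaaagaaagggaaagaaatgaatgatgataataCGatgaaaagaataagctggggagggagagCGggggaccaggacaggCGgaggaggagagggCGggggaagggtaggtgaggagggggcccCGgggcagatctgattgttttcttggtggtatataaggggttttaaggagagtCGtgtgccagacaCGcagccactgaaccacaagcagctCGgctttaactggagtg
Gsc, chr12:104473187-104473486 (- strand): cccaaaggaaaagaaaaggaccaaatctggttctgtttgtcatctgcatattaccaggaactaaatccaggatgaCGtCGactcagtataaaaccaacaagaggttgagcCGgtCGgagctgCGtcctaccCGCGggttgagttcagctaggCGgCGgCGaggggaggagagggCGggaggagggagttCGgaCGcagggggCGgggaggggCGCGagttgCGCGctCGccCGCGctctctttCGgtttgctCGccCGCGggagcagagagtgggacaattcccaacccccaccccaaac
Emx2, chr19:59458440-59458739 (+ strand): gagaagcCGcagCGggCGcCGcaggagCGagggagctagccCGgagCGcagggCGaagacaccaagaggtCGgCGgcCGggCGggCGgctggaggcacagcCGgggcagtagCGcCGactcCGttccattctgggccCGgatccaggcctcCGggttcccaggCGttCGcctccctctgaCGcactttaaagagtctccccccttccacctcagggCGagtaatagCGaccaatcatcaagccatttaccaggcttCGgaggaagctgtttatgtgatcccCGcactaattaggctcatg
Irx3, chr8:91801605-91801904 (- strand): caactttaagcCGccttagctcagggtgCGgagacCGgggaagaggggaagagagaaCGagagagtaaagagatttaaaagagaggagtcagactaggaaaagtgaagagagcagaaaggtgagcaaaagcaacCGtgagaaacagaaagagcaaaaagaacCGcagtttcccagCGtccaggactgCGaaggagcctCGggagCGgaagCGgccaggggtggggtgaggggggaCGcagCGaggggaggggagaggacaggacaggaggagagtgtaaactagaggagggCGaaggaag
Gata2, chr6:88193641-88193940 (+ strand): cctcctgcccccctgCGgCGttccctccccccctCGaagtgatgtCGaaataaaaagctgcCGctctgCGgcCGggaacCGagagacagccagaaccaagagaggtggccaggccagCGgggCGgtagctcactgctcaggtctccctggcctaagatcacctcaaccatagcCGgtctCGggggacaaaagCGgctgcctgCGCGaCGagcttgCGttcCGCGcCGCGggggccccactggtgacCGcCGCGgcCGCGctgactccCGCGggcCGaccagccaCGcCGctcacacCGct

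The Gata2 window held 32 CG, that of Emx2 26, Gsc 25, Pax6 18, Irx3 14 and Neurog2 10. A window was found for 45 of the 57 genes, and it held 3 (Myf5) to 40 (Nkx6-1) CG with a median of 19.0. At least 10 CG were present in 84.4% of these 45 windows, against 59.2% of the 16522 windows of all protein-coding genes. Among all genes with H3K27me3 and no H3K27ac over the TSS the share was 45.4%, and among those with H3K27ac alone it was 86.5%. The 7 windows of members with both marks (median 25 CG) and the 38 of members with H3K27me3 alone (median 18.5) covered overlapping ranges. The RefSeq start lay over 1 kb from the GENCODE TSS in 9 of the 45, by up to 11434 bases in Gata3, with Lhx9 (6133) and Pax9 (3704) among those with both marks. In a restriction chosen after seeing the data, the 36 windows within 1 kb had a median of 25 CG, and 88.9% held at least 10, against 64.0% of the 14265 such windows of all genes.

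Every member lay under H3K27me3 in these cells. All 57 had their TSS inside a called H3K27me3 region, against 6232 of 21911 protein-coding genes (28.4%). The members were chosen with earlier results of these data known, so this contrast is a description and not a test. Of the 57, 49 carried H3K27me3 alone at the TSS, a state found in 25.3% of all genes, and 8 carried H3K27ac as well, a state found in 3.17% of all genes. The closer comparison is with the 6232 genes that had H3K27me3 over the TSS. Of those, 694 carried both marks and 5538 H3K27me3 alone, so both marks together were not particular to the members. The 8 were Emx2, Irx3, Irx5, Lhx9, Six2, Gsc, Pax9 and Gata2. No member carried H3K27ac alone, the state of 46.9% of all genes, and none was without both marks. These states hold for old and young cells together, because each table is a single list of regions, and every H3K27me3 region over a member's TSS is named there for both ages. The counts were the same for regions within 1 kb of the TSS, and with any annotated transcript start Gata3 joined the genes with H3K27ac, which made 9.

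The domains were long and dense. Since Six3 and Six2 lay in 1 domain of 379.0 kb and Cdx2 and Pdx1 in another of 239.0 kb, the 57 TSSs fell in 55 separate regions. These had a median length of 83.0 kb, against 31.0 kb for all 4716 H3K27me3 regions over a protein-coding TSS, and 25 members lay in a domain of at least 100 kb. The longest was that of Sox1, a marker of the neural plate, with 476.0 kb, and the shortest was that of Sox18, a regulator of vessel formation, with 12.5 kb. In 52 genes the whole gene body lay inside the domain, and the exceptions were Pax6, Pax8, Pax1, Gata2 and Gata3. For 19 members the domain also covered the TSS of another protein-coding gene, so that its value was not specific to the member. Examples are Myf6 beside Myf5, Nkx2-9 beside Pax9, Gsx1 beside Cdx2 and Pdx1, and Blk beside Gata4.

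Levels are given as density, the reads per kb of region and per 1000000 reads of the library (RPKM), scaled between libraries. The median density of the 55 domains was 1.69, against 1.05 for all TSS regions and 0.737 for all 28047 H3K27me3 regions. Of the 57 genes, 53 stood above the 90th percentile of density of all H3K27me3 regions, and the lowest, Gsc, stood at the 77.2th. Across the 55 domains the length and the density had a Spearman correlation of -0.15, given as a description over regions that share their libraries.

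**Figure D1:**
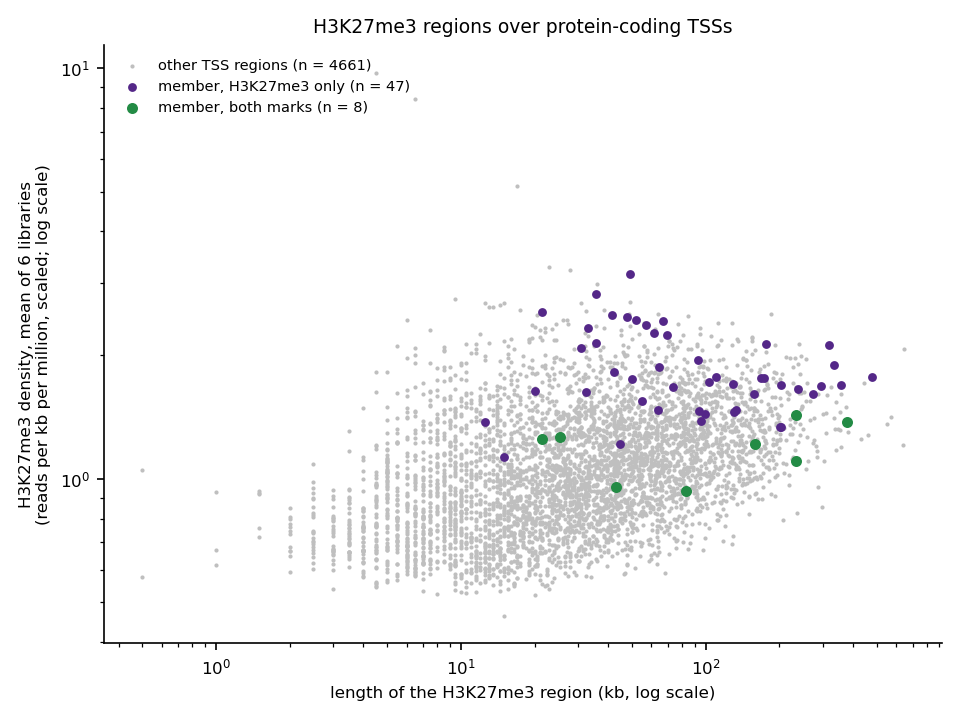
Length in kb (x axis, log scale) and mean H3K27me3 density over 6 libraries in scaled RPKM (y axis, log scale) of every H3K27me3 region over a protein-coding TSS. Grey points are 4661 other regions, purple points 47 member regions with H3K27me3 alone and green points 8 member regions with both marks. The member regions lie from 12.5 to 476.0 kb and from 0.934 to 3.15, with the green points in the lower part of the members' range of density.

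Pax6, which specifies the eye and the dorsal forebrain, had the densest domain. Its density was 3.14, 3.62 and 3.94 in young replicates 1 to 3 and 3.19, 2.95 and 2.03 in old replicates 1 to 3. The old libraries lay lower except for replicate 1, which fell inside the young range. Next came Neurog2, a proneural factor of the spinal cord and cortex, with a mean over the 6 libraries of 2.81. Sox17, which specifies endoderm and arterial endothelium, followed with 2.55, Nkx2-1, of lung, thyroid and ventral forebrain, with 2.51, and Gata3, of T cells and the inner ear, with 2.47. The ranges of these 5 genes over the libraries overlapped. Within every library Pax6 lay above Neurog2 and Neurog2 above Sox17, while the order of Sox17, Nkx2-1 and Gata3 changed between libraries.

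At the other end stood Gsc, a patterning factor of the early embryo and of craniofacial mesenchyme. Its density was 0.916, 1.03 and 0.933 in young and 1.05, 0.836 and 0.840 in old replicates, and the ages overlapped. Emx2, of the cortex and the urogenital tract, averaged 0.955 over the 6 libraries, Irx3, of the ventral spinal cord, 1.11, Myf5, a determinant of skeletal muscle, 1.13, and Pax9, of the pharyngeal pouches and sclerotome, 1.21. Of these 5 genes, 4 carried H3K27ac at the TSS, and Myf5 did not.

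By lineage, the median density of the domains was 2.11 for the endoderm, gut, lung, thyroid and pancreas group (6 domains, with Foxa1 at 1.95 and Foxa2 at 1.70) and 1.89 for the heart group (5, with Nkx2-5 at 2.24 and Gata4 at 1.89). It was 1.75 for forebrain, midbrain and eye (12), 1.69 for spinal cord and hindbrain (13) and 1.64 for kidney, thyroid and early patterning (5). For neural crest and skeletal muscle it was 1.56 (6), where Pax3, of muscle precursors and neural crest, reached 2.13 and Myog, of differentiating muscle, 1.34. The ranges of these groups overlapped. The remaining groups had lower medians. These were 1.55 for forebrain interneuron and gonad LIM factors (3), 1.49 for blood, lymphoid and endothelial factors (4) and 1.42 for sclerotome and pharyngeal pouches (2). Their ranges overlapped with those of the other groups, except that the higher sclerotome domain, 1.625, lay below the lowest endoderm domain, 1.65.

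**Figure D2:**
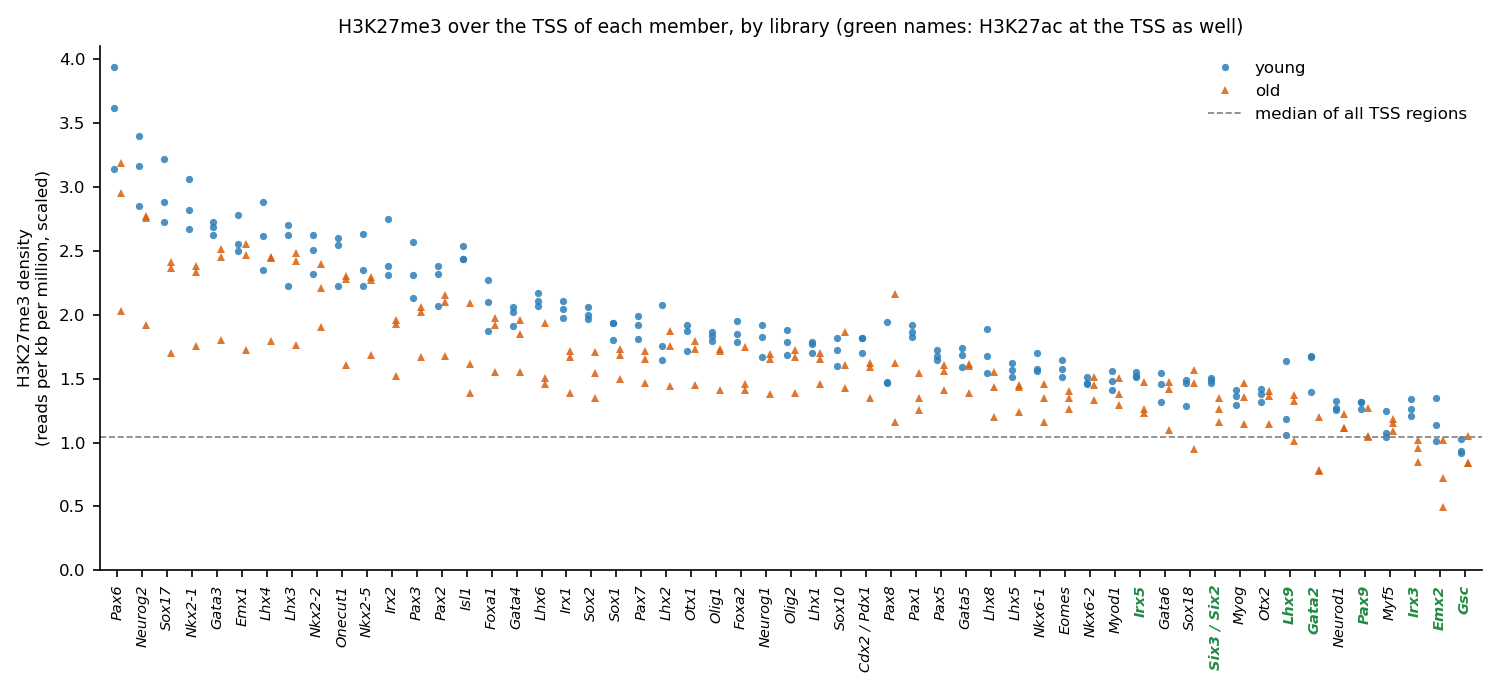
H3K27me3 density in scaled RPKM (y axis) over the TSS of each member, ordered by mean density, with 1 point per library, young as circles and old as triangles. Green names mark domains in which a member's TSS also lies in an H3K27ac region (in the shared domain of Six3 and Six2, that of Six2), and the dashed line is the median of all TSS regions, 1.05. The lowest triangle of most genes is old replicate 3.

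The 8 members with both marks had an H3K27ac region of 5.0 to 19.5 kb over the TSS, placed within a longer H3K27me3 domain. The H3K27ac region lay wholly inside the domain in Emx2, Irx3, Irx5, Six2, Gsc and Pax9, to 97.2% in Lhx9 and to 76.9% in Gata2. In Gata2, a regulator of blood stem cells and endothelium, the domain began 12.4 kb before the TSS and ended 9.11 kb after it, while H3K27ac ran from 0.89 kb before to 12.1 kb after the TSS. In Emx2 the H3K27ac region covered 45.4% of a domain of 43.0 kb. In Irx3 the domain of 234.5 kb overlapped 4 H3K27ac regions that covered 7.25% of it. The Six2 domain of 379.0 kb, which also held the TSS of Six3, overlapped 3 such regions, and these covered 1.98%. The median H3K27me3 density of the 8 domains was 1.23, with a range of 0.934 to 1.43, while the 47 domains with H3K27me3 alone ranged from 1.13 to 3.15. No test of this difference was made.

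The density of H3K27ac over these TSSs was 0.772 (Lhx9) to 1.55 (Irx3), with a median of 1.23, and the median of all H3K27ac regions over a TSS was 1.18. Irx3 stood at the 90.1th percentile of all H3K27ac regions, Six2 at the 14.6th and Lhx9, of the gonad and forebrain, at the 6.6th. Irx5, a close relative of Irx3 in the same cluster, stood at the 76.9th.

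**Figure D3:**
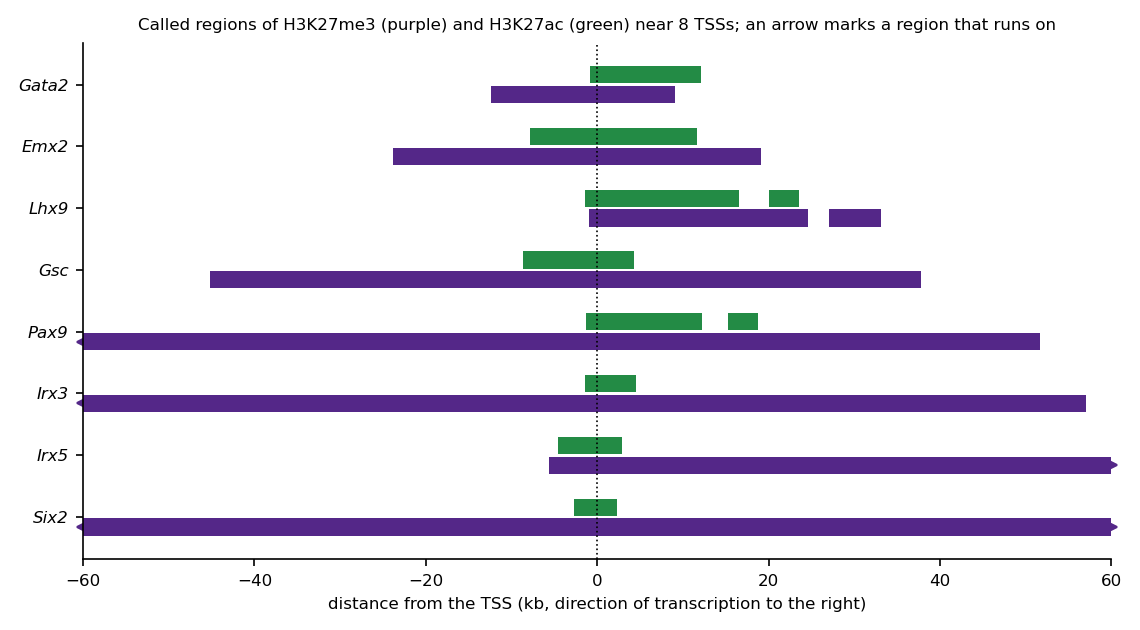
Called regions of H3K27me3 (purple) and H3K27ac (green) within 60 kb of the TSS of the 8 members with both marks, as distance in kb from the TSS in the direction of transcription (x axis), 1 gene per row. An arrow marks a region that continues past the frame, and only regions within 10 kb of the gene are drawn. H3K27ac sits at the TSS within a longer H3K27me3 domain, except that it runs past the 3′ end of the Gata2 domain and slightly past the 5′ end of that of Lhx9.

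H3K27ac without contact to the TSS was found near 8 members. In Gata3 a region of 2.0 kb lay inside the gene, 10.0 kb from the TSS. Pax8, of thyroid and kidney, had 1 such region inside the gene and 1 of 3.0 kb that ended before the TSS, and Lhx9 and Pax9 each had a further region inside the gene. The regions near Lhx1, Sox10 and Sox18 lay outside the genes, and they covered the TSSs of neighbours, among them Aatf, Polr2f, Tcea2 and Rgs19. The region near Onecut1, 39.6 kb from its TSS, covered no other TSS. In 43 members no H3K27ac region lay in the gene or within 10 kb of it. Over the whole length of the domains, 34 members had no H3K27ac and 23 had at least 1 region that overlapped the domain.

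H3K27me3 was then compared between ages. It fell in the old libraries over the TSSs of Gata2, Isl1, Irx2, Pax1, Irx3 and Sox2, and 0 members passed the test in the other direction. These were 6 of the 62 H3K27me3 regions in the members' windows (limma, adjusted p under 0.05 over all 28047 regions). The calls over the whole genome were 0.488% of regions, and those lower in old libraries were 0.406%. Among all 4716 TSS regions 0.827% were called, and among the 2805 densest of all H3K27me3 regions 1.21%.

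Gata2 had the largest fall. The density over its TSS, on chromosome 6 from 88181501 to 88203000, was 1.68, 1.40 and 1.67 in young replicates 1 to 3 and 1.20, 0.780 and 0.781 in old replicates 1 to 3. No old library reached the lowest young one. The mean was 1.58 ± 0.159 in young and 0.920 ± 0.241 in old libraries (SD, n = 3), a log2 fold change of -0.80 (SE 0.15, limma adjusted p = 0.0232). The domain covers the first part of the gene, its TSS with exons and introns, and no other protein-coding TSS. Endothelial and blood markers had no called H3K27ac at the TSS, Pecam1, Cdh5, Ptprc and Spi1 included. The H3K27me3 regions over 6 of 8 endothelial markers had a summed density of 5.98 to 6.26 in young and 5.58 to 6.07 in old libraries. Over 4 of 8 blood markers it was 5.95 to 6.55 in young and 5.21 to 6.04 in old libraries. The log2 fold change was below 0 in 3 of the 6 endothelial and 4 of the 4 blood marker regions. In Cdh5 all old libraries lay below all young ones. Of these marker regions 0 were called, which says little for so few regions when 0.827% of all TSS regions were called. Any relation of these markers to the Gata2 difference was not tested.

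Isl1, a factor of cardiac progenitors and motor neurons, lay in a domain of 31.0 kb on chromosome 13 from 116289501 to 116320500. Its density was 2.44, 2.54 and 2.43 in the young and 2.10, 1.61 and 1.39 in the old replicates. The ages did not overlap, and the difference on the log2 scale was -0.56 (SE 0.12, limma adjusted p = 0.0387). Sox2, which maintains neural progenitors and pluripotent cells, had 1.97, 2.00 and 2.06 in the young and 1.71, 1.55 and 1.35 in the old replicates. Over its domain of 110.0 kb, on chromosome 3 from 34618001 to 34728000, the log2 fold change was -0.39 (SE 0.09, adjusted p = 0.0449). The young libraries of Sox2 differed little, with an SD of 0.0461, and the old ones spread over an SD of 0.180.

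Among the Irx genes, homeobox factors that pattern the neural tube, heart and limb, Irx2 and Irx3 were called. Irx2 had 2.38, 2.31 and 2.75 in the young and 1.96, 1.93 and 1.52 in the old replicates, on chromosome 13 from 72614501 to 72650000 (log2 fold change -0.46, SE 0.10, adjusted p = 0.0491). Irx3 had 1.26, 1.21 and 1.34 in the young and 1.02, 0.958 and 0.846 in the old replicates, on chromosome 8 from 91745001 to 91979500 (log2 fold change -0.43, SE 0.08, adjusted p = 0.0243). In both genes the ages were apart. The other Irx genes among the 57, Irx1 (log2 fold change -0.37, adjusted p = 0.0801) and Irx5 (-0.21, adjusted p = 0.209), also had all old libraries below all young ones, and neither passed the test. Pax1, which patterns the sclerotome from which the vertebrae form, had 1.82, 1.92 and 1.86 in the young and 1.55, 1.25 and 1.35 in the old replicates. Its log2 fold change was -0.44 (SE 0.10, adjusted p = 0.0455) over 32.5 kb on chromosome 2 from 147350001 to 147382500. Its relative Pax9 had a log2 fold change of -0.22 (adjusted p = 0.239), with overlapping ages.

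The direction was shared well beyond the called genes. Of the 55 domains over a TSS, 54 had a log2 fold change below 0, and the exception was Myf5 with 0.03 (SE 0.13, adjusted p = 0.943), a value that was below 0 on the signal as deposited. The median over the 55 was -0.21, against -0.06 over all 4716 TSS regions, of which 65.7% were below 0, and -0.12 over the 2805 densest of all H3K27me3 regions, of which 82.8% were. In 25 of the 55 domains all old libraries lay below all young ones, and in 0 they lay above. Over the whole genome 10.6% of regions were apart with the old libraries lower, and the share was 17.4% of all TSS regions and 23.5% of the 2805 densest regions. Among those apart and not called, Sox17 differed most, with 2.73, 2.88 and 3.22 in the young and 2.41, 2.37 and 1.70 in the old replicates (log2 fold change -0.46, SE 0.12, adjusted p = 0.0826). Emx2 had the second most negative value of all members, -0.69 (SE 0.20, adjusted p = 0.136). Its densities of 1.14, 1.35 and 1.01 in the young and 1.02, 0.496 and 0.722 in the old replicates overlapped at a single old library.

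By lineage, all 12 domains of the forebrain, midbrain and eye group were below 0 (median -0.22, 5 apart, Sox2 called), as were all 13 of the spinal cord and hindbrain group (median -0.20, 6 apart, Irx3 called). All 6 domains of the endoderm group were below 0 as well, with a median of -0.28 and 4 apart, and 0 were called. Nkx2-1 came closest, at -0.41 (SE 0.11, adjusted p = 0.0792). Neural crest and skeletal muscle had a median of -0.08, with 5 of 6 below 0, where Pax3 (-0.29, adjusted p = 0.127) and Pax7 (-0.25, adjusted p = 0.143), of muscle precursors, were apart. The muscle determinants Myod1 (-0.09), Myog (-0.04) and Myf5 (0.03) overlapped between ages. The heart group had a median of -0.17, with Isl1 called and Gata4 (-0.17), Gata5 (-0.13), Gata6 (-0.12) and Nkx2-5 (-0.21) overlapping. In the remaining groups all domains were below 0. The median was -0.33 for sclerotome and pharyngeal pouches (2 domains, 1 apart, Pax1 called). It was -0.29 for forebrain interneuron and gonad LIM factors (3, 1 apart, 0 called). For kidney, thyroid and early patterning it was -0.25 (5, 3 apart, Irx2 called). For blood, lymphoid and endothelial factors it was -0.20 (4, 3 apart, Gata2 called). These differences between lineages were not tested. Across the 55 domains the log2 fold change had a Spearman correlation of -0.38 with density and 0.23 with length, as a description over regions of the same libraries.

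**Figure D4:**
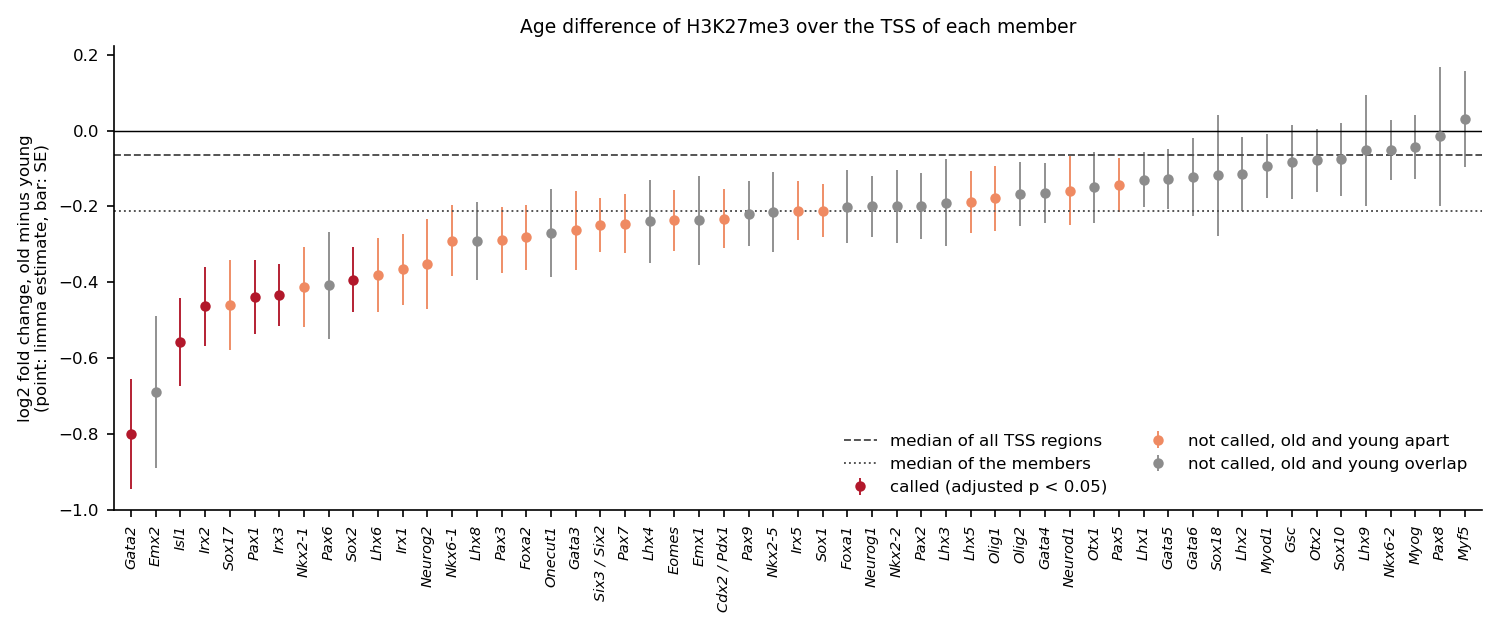
Log2 fold change of H3K27me3, old minus young (y axis, points are limma estimates and bars their SE), over the TSS of each member in increasing order. Red points are the 6 called domains, orange points those not called in which the ages did not overlap, and grey points the rest. The dashed line is the median of all TSS regions (-0.06) and the dotted line that of the members (-0.21), and 54 of 55 points lie below 0.

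The size of this difference moved with single libraries. Old replicate 3 was the lowest of the 6 libraries in 50 of the 55 domains. It was also the lowest in 2032 of all 4716 TSS regions and in 1840 of the 2805 densest of all H3K27me3 regions. The members' TSS regions took 1.19% to 1.35% of all reads of the young H3K27me3 libraries and 1.13%, 1.08% and 0.862% of those of old replicates 1 to 3. Without old replicate 3 the median log2 fold change of the 55 domains was -0.11, with 46 below 0, and Gata2 (-0.70) and Irx3 (-0.35) remained called. Without old replicate 1 or 2 the calls numbered 8 and 11, with 5 of the 6 genes among them in each case. Without any 1 of the young libraries 0 member regions were called, and the calls in the whole table fell to between 10 and 17. The part of old replicate 3, or of its low share of reads in regions, in the members' difference was not tested beyond these values. On the signal as deposited the median of all H3K27me3 regions was -0.13 and that of the members -0.33, a difference of -0.21, and after scaling the difference was -0.20. The calls in the whole table then numbered 774, of which 21 were higher, against 137 with 23 higher after scaling.

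Of the 7 other H3K27me3 regions in the members' windows, 0 were called by limma. An unadjusted limma p-value under 0.05 was reached by 13.9% of all H3K27me3 regions and by 1 of these 7, with a higher value in old libraries. The log2 fold change was above 0 in 5, among them a region of 8.0 kb beside Myf5 (0.58, adjusted p = 0.2695) and 1 of 24.5 kb inside Pax8, 39.6 kb from its TSS (0.30, adjusted p = 0.434), and all 7 overlapped between ages. Their densities, 0.566 to 0.942, lay below those of the TSS domains of the same genes.

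H3K27ac near the members was compared in the same way, and 0 of their 18 regions were called by limma, by edgeR or by DESeq2. An unadjusted p-value under 0.05 was reached by 4 of the 18 in limma, 4 in edgeR and 2 in DESeq2. In limma 9.6% of all H3K27ac regions reached it. Over the whole genome limma called 0.0822% of the 31617 regions, while 7.42% were apart with the old libraries lower and 7.1% with the old libraries higher. Among the members' 18 regions 1 was apart with the old libraries lower and 3 with the old libraries higher.

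Six2, which maintains the progenitors of the kidney's nephrons, had the largest difference. H3K27ac over its TSS, on chromosome 17 from 85686001 to 85691000, had a density of 0.686, 0.462 and 0.592 in young replicates 1 to 3 and 1.08, 1.26 and 1.02 in old replicates 1 to 3. All old libraries lay above all young ones. With a log2 fold change of 0.90 (SE 0.28), the limma test gave an adjusted p = 0.221 and an unadjusted p = 0.00248, and the value rested on 8 to 27 reads per library. Gata2 was the other TSS with all old libraries higher, on chromosome 6 from 88193001 to 88206000. It had 0.704, 1.18 and 1.09 in the young and 1.36, 1.42 and 1.31 in the old replicates, a log2 fold change of 0.49 (SE 0.17, adjusted p = 0.2999), from 47 to 89 reads per library. H3K27ac was thus higher in the old libraries over the same TSS at which H3K27me3 fell, but only the H3K27me3 difference passed the test.

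Of the other members with both marks, Emx2 had 1.09, 1.07 and 1.16 in the young and 1.15, 1.77 and 1.41 in the old replicates for H3K27ac (log2 fold change 0.36, adjusted p = 0.368). Irx3 (0.25, adjusted p = 0.745), Irx5 (0.23, adjusted p = 0.770) and Gsc (0.07, adjusted p = 0.943) had overlapping ages, and Gsc changed sign on the signal as deposited. Pax9 had -0.20 (adjusted p = 0.770), also with overlap. In Lhx9 all old libraries lay below all young ones, with 0.826, 0.898 and 0.8495 in the young and 0.631, 0.721 and 0.708 in the old replicates (-0.32, SE 0.16, adjusted p = 0.534). The median over the 8 TSS regions was 0.24, against 0.02 over all 8167 H3K27ac regions over a TSS, with 6 of 8 above 0. It ranged from 0.10 without young replicate 1 to 0.36 without old replicate 1. The Spearman correlation between the log2 fold changes of both marks over these 8 genes was -0.79, a description of 8 genes that share their libraries. The region inside Gata3, at 0.67 (adjusted p = 0.568) and 5 to 13 reads per library, was the further 1 apart with the old libraries higher.

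**Figure D5:**
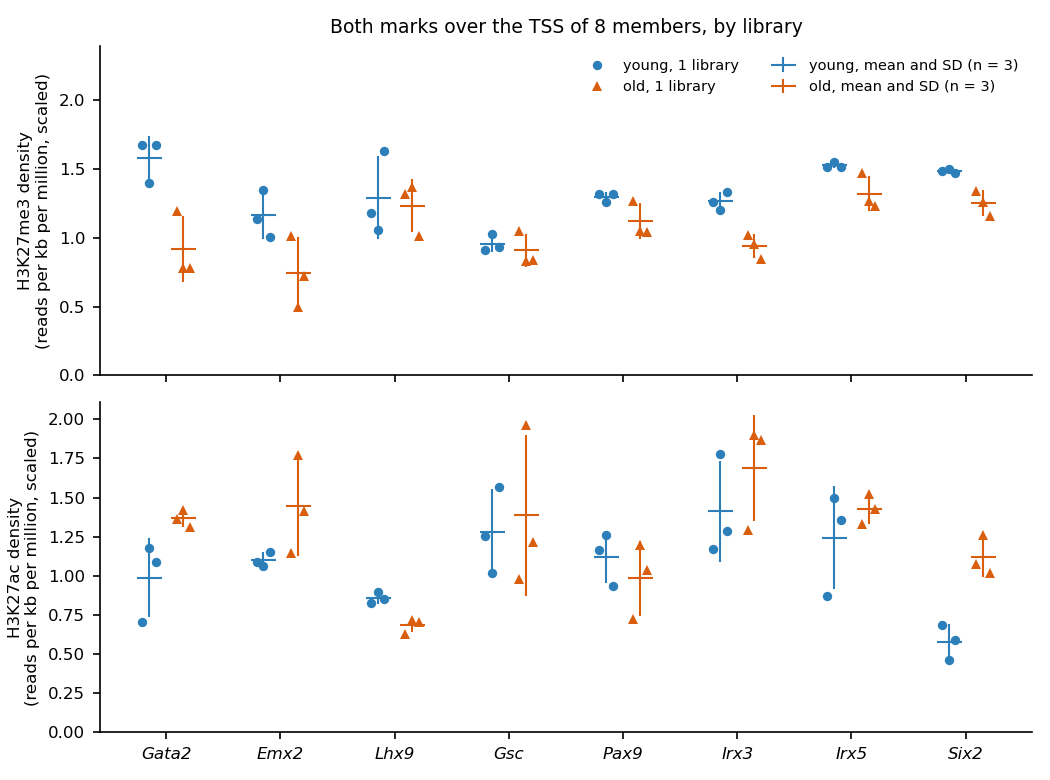
Density in scaled RPKM (y axes) of H3K27me3 (top) and H3K27ac (bottom) over the TSS of the 8 members with both marks, with 1 symbol per library and the mean with its SD (n = 3) per age, young in blue and old in orange. H3K27me3 of Gata2, Irx3, Irx5 and Six2 is lower in all old libraries. H3K27ac of Gata2 and Six2 is higher in all old libraries, and that of Lhx9 is lower in all of them.

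The same values were taken for 30 transcription factors known from stromal and skeletal lineages. Of these, among them Prrx1, Twist1, Runx2 and Sox9, 26 carried H3K27ac over the TSS, 20 of them without H3K27me3. The 10 with H3K27me3 over the TSS, such as Tcf21 (-0.41, adjusted p = 0.0740) and Osr2 (0.13, adjusted p = 0.588), had a median log2 fold change of -0.24, with 8 of 10 below 0 and 0 called. Of 37 further genes of the same families as the members, 33 had H3K27me3 over the TSS. In their 32 regions the median was -0.19, with 31 below 0, 11 apart with the old libraries lower and 0 called. Sox3 (-0.35, adjusted p = 0.146) and Irx4 (-0.32, adjusted p = 0.105) were among the 11. Lmx1b stands in both lists, and the regions of Myf6 and Nkx2-9 are those of the members Myf5 and Pax9.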

How the data were processed

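Each mark's table was deposited by the authors as 1 signal value per called region and sample, for a single list of regions in steps of 500 bp whose names give the ages in which each was found. The submitters' processing notes name Bowtie2, Picard, mm10 and GRCm38. The peak caller, and whether samples were pooled for it, are not given in the sources used here. The table names say RPKM, but the deposited signal is reads per 1000000 library reads over a constant 0.5 kb, not the region's length. All values (100%) came within 0.1 of whole reads, so reads and library totals were recovered, and the planned tests were kept. Of the sample columns, 0 were left unused. Yeast DNA was not analysed here, and some genes of the lists are not reported here.

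Libraries were brought to 1 scale within a mark with median-of-ratios factors (RLE), and log2(signal + 0.5) was fitted with limma 3.58.1 (R 4.3.3), with trend and robust moderation. Tests were two-sided, with Benjamini-Hochberg adjustment over all regions of the table and calls at 0.05, and no replicate number as block. Fold changes on this scale understate the change of regions with few reads. No filter on low values was used. The main limma fit was tested on simulated data with larger changes than those of the called members, so that test does not cover changes of their size. edgeR 4.0.16 and DESeq2 1.42.0 were run on recovered reads. Density is the scaled signal times 0.5 kb over the region's length. Genes and TSSs came from GENCODE vM21 basic (GRCm38). A count of 3 reads was the floor, and no region named with a fold lay at it in all libraries of an age.

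The members, the lists of relatives, stromal regulators and cell type markers, and the rule for named genes were chosen with earlier results of these data known. Named were genes with a called region, with H3K27ac over the TSS, with the 5 largest changes of H3K27me3 in each direction (3 for H3K27ac) among those whose ages did not overlap, or with the 5 highest or lowest H3K27me3 densities. The labels do not say whether replicate numbers pair the samples. The deviations of same-numbered young and old libraries correlated by -0.078 to 0.043 for H3K27me3 and -0.054 to 0.066 for H3K27ac. Those of different-numbered libraries correlated by -0.128 to 0.133 and -0.096 to 0.075. With 3 libraries per group these values cannot decide whether samples were paired. Libraries of 1 group correlated by 0.966 to 0.986 for H3K27me3 and 0.921 to 0.955 for H3K27ac. The labels give no batch or date, so no values within batches were computed.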

Additional observations from a re-analysis of the deposited data

How the results depend on the processing

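The count of 6 called H3K27me3 regions became 11 on the signal as deposited, 10 with edgeR, 3 without the 25% of regions with the lowest signal, 2 with a pseudocount of 0.1 and 0 in limma without trend and robust moderation, where 11 member regions had an unadjusted p-value under 0.05. It ranged from 0 to 11 when each library was omitted in turn. With TMM scaling, a pseudocount of 2, the replicate block or windows of 0 or 50 kb it was 6, and with DESeq2 5. In the whole H3K27me3 table the calls numbered 774 on the signal as deposited, 380 with edgeR, 87 with DESeq2, 71 with a pseudocount of 0.1, 81 without these low regions, 35 without trend and robust moderation and 309 with the replicate block, against 137. Omitting 1 library at a time gave 10 to 313. For H3K27ac they numbered 105, 96, 6, 14, 33, 0 and 81 in that order, 63 with a pseudocount of 2 and 2 to 45 when a library was omitted, against 26, and 0 member regions were called in any. The replicate block changed no call among the members. In all alternatives that called a member region, every call was lower in old libraries. Gata2 was called under 11 of 15 alternatives (log2 fold change -1.003 to -0.70; limma without trend and robust moderation, added to the 15 after seeing the data, called none of these genes) and Irx3 under 11 (-0.56 to -0.35), Isl1 under 9, Sox2 under 8, Irx2 under 7 and Pax1 under 6. The median of the 55 H3K27me3 domains stayed below 0, from -0.33 to -0.11, and that of the 8 H3K27ac regions above 0, from 0.10 to 0.36. Counting H3K27ac anywhere in the gene or within 10 kb gave 14 members with H3K27ac and 14 with both marks, the added ones being Gata3, Lhx1, Onecut1, Pax8, Sox10 and Sox18.

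A few named genes changed sign, and the cause was not tested. For H3K27me3, Myf5 was -0.091 on the signal as deposited and ranged from -0.017 to 0.11 when libraries were omitted, and Lhx9 from -0.18 to 0.13. For H3K27ac, Gsc was -0.045 on the signal as deposited and -0.021 with edgeR and ranged from -0.21 to 0.29 when libraries were omitted, Irx5 from -0.0058 to 0.38 and Pax9 from -0.35 to 0.0022. The H3K27ac regions of the members held as few as 4 reads per library, which limits what can be seen there.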

Other observations

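Among the relatives of the member families, Six4 and Six5 carried H3K27ac and no H3K27me3 over the TSS. Six4 had an H3K27ac density of 1.65 and a log2 fold change of 0.35 (limma adjusted p = 0.560), and all its old libraries lay above all its young ones. Six5 had a density of 1.37 and overlapping ages. Six6 lay under H3K27me3 alone, and Six3 shared the domain of Six2. Nkx3-2, of the sclerotome and stomach, and Foxa3, of the liver, carried both marks. Neurod4 carried neither.

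In the stromal list both marks met at the TSSs of Twist2, Ebf2, Ebf3, Osr2, Meox1 and Mkx, while Tcf21, Pitx1, Alx4 and Lmx1b had H3K27me3 alone. Twist2 and Meox1 had H3K27ac log2 fold changes of 0.54 (adjusted p = 0.501) and 0.76 (adjusted p = 0.590), with overlapping ages.

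The H3K27me3 regions over skeletal muscle markers included that of Acta1, skeletal muscle actin, with a log2 fold change of -0.54 (adjusted p = 0.0903), and the epithelial marker Cldn4 had -0.44 (adjusted p = 0.138). In both all old libraries lay below all young ones. The medians of the marker lists were -0.04 for endothelial, -0.14 for blood, -0.05 for skeletal muscle, -0.08 for neural and glial and -0.16 for epithelial markers, with 0 regions called in any of them. The 2 MSC markers with H3K27me3 over the TSS were Nt5e and Lepr, with a median of 0.05.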
